A study of Mus musculus with 8 samples.

Results

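The potassium channel genes of SV-LECs were taken as every gene of the count table whose symbol consists of Kcn, lower-case letters and a final number, and 92 of 55471 genes met this rule. SV-LECs are an SV40-immortalized line of mouse lymphatic endothelial cells from mesenteric adventitial tissue. RNA was sequenced from 4 libraries of nontreated cells (svLEC_ctrl) and from 4 libraries of cells given TGF-b1 at 10 ng/ml for 72 h (svLEC_tgfb1), here called untreated and TGFβ1-treated libraries. Both groups are the same immortalized line, and its quadruplicate samples are described as technical replicates, so each p-value covers the spread between libraries and not between independent cultures. In bulk RNA, fewer cells that express a gene and less of its RNA per cell cannot be told apart.

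Potassium channels are membrane proteins that let potassium leave the cell and so set its resting voltage. Voltage-gated members open on depolarization, inward rectifiers hold the resting potential, K2P (two-pore) members carry background leak current, and calcium-activated members link calcium signals to hyperpolarization. In endothelium, the small- and intermediate-conductance calcium-activated channels and the inward rectifiers are known for the hyperpolarization that sets calcium entry and is passed on to smooth muscle. Auxiliary subunits form no pore and change the gating or the surface level of the pore-forming subunits.

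The pore-forming subunits share a selectivity filter, a short run of residues that strips water from potassium ions. Coding sequences of GENCODE M21 (GRCm38) were translated, and the filter was searched as threonine or serine, then valine, isoleucine, leucine or threonine, then glycine, then tyrosine, phenylalanine or leucine, then glycine. Among the 20 members with enough counts to be tested, 12 pore-forming genes held 1 match, the 4 K2P genes held 2, and the 4 auxiliary genes held 0. The stretches below belong to members whose RNA differed strongly between the groups, and show only that each of them encodes a pore-forming subunit. Channel groups were assigned by gene symbol and not from these stretches. Each holds 57 coding bases in the direction of the transcript, with the 15 bases of the filter in capitals.
Kcnh2: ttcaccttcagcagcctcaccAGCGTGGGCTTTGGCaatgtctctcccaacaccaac
Kcnj4: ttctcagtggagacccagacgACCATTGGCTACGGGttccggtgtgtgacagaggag
Kcnj15: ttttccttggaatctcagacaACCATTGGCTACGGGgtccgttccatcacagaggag
Kcnn3: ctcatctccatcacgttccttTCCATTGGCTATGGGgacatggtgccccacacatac
Kcnn4: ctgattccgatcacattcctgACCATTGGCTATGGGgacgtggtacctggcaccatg
Kcnk5, first pore: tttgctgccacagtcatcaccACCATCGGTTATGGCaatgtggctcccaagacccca
Kcnk5, second pore: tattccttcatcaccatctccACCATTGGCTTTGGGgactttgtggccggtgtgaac
The stretch of Kcnh2 lies at chr5:24325534-24325590 on the minus strand in exon 7. Those of Kcnj4 (chr15:79485346-79485402, minus strand, exon 2) and Kcnj15 (chr16:95295959-95296015, plus strand, exon 5) shared 44 of 57 bases and all 15 bases of the filter. Kcnn3 (chr3:89645491-89645547) and Kcnn4 (chr7:24379177-24379233), both on the plus strand in exon 4, shared 41 of 57 bases. Both stretches of Kcnk5 cross an exon junction on the minus strand, the first between exons 2 and 3 (chr14:20145094-20146528 with the intron) and the second between exons 4 and 5 (chr14:20142450-20144683 with the intron). They shared 27 of 57 bases with each other.

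Total counts were between 18952504 and 26386941 per library, and 3 counts in a library corresponded to 0.113 to 0.162 normalised CPM, which are counts scaled to the TMM-normalised size of the library. At this depth 3 counts were taken as the limit of detection, which covers counting error only. Treatment was visible in the 5 TGFβ1 response genes examined, all of which were significantly higher, among them Acta2 by 1.89 and Ccn2 by 2.06 on the log2 scale. Of 10 endothelial markers, Pdpn and Flt4 were well expressed (mean 342 and 21.6 CPM in untreated libraries), while Tie1 and Ccl21a had 0 counts in all 8 libraries and Prox1, Lyve1, Pecam1 and Cdh5 had at most 5. Of the 4 endothelial markers tested, Flt4 and Kdr were higher, Kdr at 11.6 and 22.1 CPM, Pdpn was lower, and Tek did not pass. Across the 10 markers, of which Pdpn carried most of the reads, the summed level was 357 to 394 CPM in untreated and 360 to 370 CPM in TGFβ1-treated libraries. Of 8 fibroblast and mural markers, 5 were higher and 2 lower, with sums of 5805 to 7821 and of 7196 to 8422 CPM in the same order. Among all genes tested, 37.6% were higher and 38.0% lower. Myh11, among those higher, had 2 to 11 untreated and 16 to 23 treated counts and could enter the test only by being higher. Col1a1 and Col3a1 carried most of the summed reads, and their means went from 3459 to 6057 and from 3408 to 1805 CPM. Of 6 neuronal markers, Syt1 and Tubb3 were higher, and the sums were 7.90 to 9.74 and 12.8 to 15.3 CPM, with Snap25 at 0 counts throughout. Of 6 leukocyte markers, Cd68 and Csf1r were higher, with sums of 6.02 to 8.25 and 16.2 to 18.6 CPM, and Ptprc had at most 1 count. Syt1 had 4 to 11 untreated and 14 to 26 treated counts, and Csf1r had 3 to 10 and 19 to 33. Both could enter the test only by being higher after TGFβ1. The part of these cell type markers in the potassium channel results was not tested.

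Most potassium channel genes were close to silent. No read was counted on 27 of the 92 genes in any library, and a further 28 never exceeded 3 counts. Among the genes without a count were Kcnj2, which encodes the inward rectifier Kir2.1, and Kcnk18. Kcnj8, the pore subunit of the vascular ATP-sensitive channel, had 1 count in 1 of the 8 libraries. Kcnma1, the large-conductance calcium-activated channel, had 1 to 6 counts per untreated and 1 to 3 per TGFβ1-treated library. In 17 genes the highest library exceeded 3 counts without passing edgeR's filter on low counts, which left 20 genes to be tested. None of the 10 modulatory voltage-gated genes, whose products do not form channels on their own, was tested. Between 33 and 40 members had at least 1 count in each untreated library and between 43 and 48 in each TGFβ1-treated library. Over the whole table the number of genes with a count was also higher after TGFβ1, 21054 to 22128 against 19725 to 20662, and the part of this wider detection in the low potassium channel genes was not tested.

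**Figure D1:**
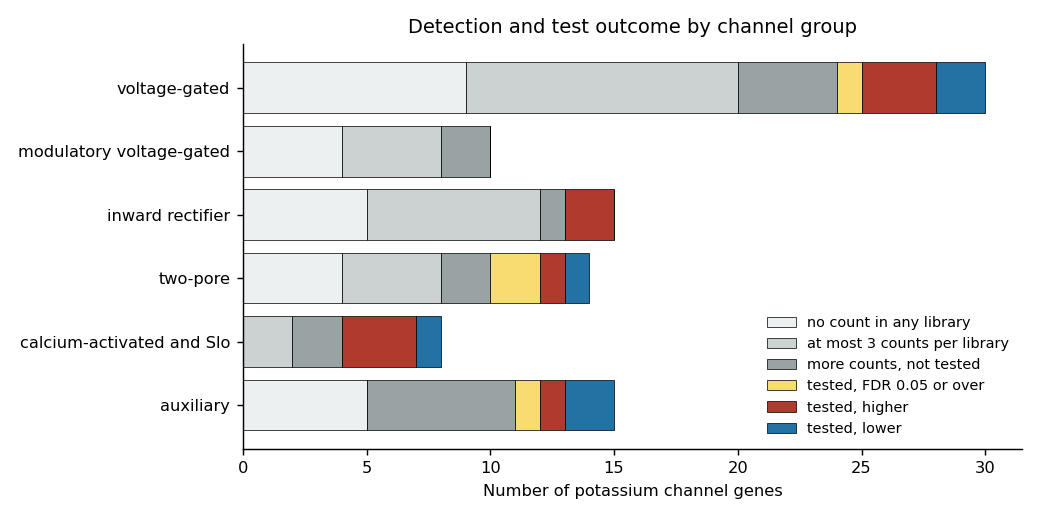
Number of potassium channel genes in each channel group by detection and test outcome, where each bar is 1 group and its segments run from genes without a count to genes tested and lower. In every group except the calcium-activated and Slo genes, the genes that were not tested outnumber those that were.

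Of the 20 tested genes, 10 were significantly higher and 6 significantly lower in TGFβ1-treated libraries by the likelihood ratio test of edgeR at a threshold of 0.05 on the FDR (false discovery rate). Over all 13818 genes tested, 75.6% passed in either direction, 37.6% higher and 38.0% lower, so the share of 80.0% among the members was close to that of all genes. Changes of at least 1 on the log2 scale were found in 10 of the 20, with 8 higher and 2 lower, and in 17.5% of all genes (10.9% higher and 6.56% lower). However, 5 of these, among them Kcnj15, Kcnk1, Kcnn3 and Kcnn4, had enough counts in TGFβ1-treated libraries only and could enter the test only by being higher there. Among the other 15 tested genes, 5 were higher, 6 were lower and 4 did not pass. The median log2 fold change was 0.42 over the 20 genes, also with Kcnj15 at its lower bound, and -0.33 over these 15, against -0.0064 over all genes tested. For 15 of the 20 genes, 75.0%, the 2 groups of libraries did not overlap, against 69.8% of all genes tested. Among them were all 5 genes that could enter the test only by being higher. For each gene without overlap, an exact two-sided permutation test over libraries gave p = 0.0286, the smallest value that 4 against 4 allows. Lack of overlap fixes this value, so it adds nothing to the lack of overlap itself.

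**Figure D2:**
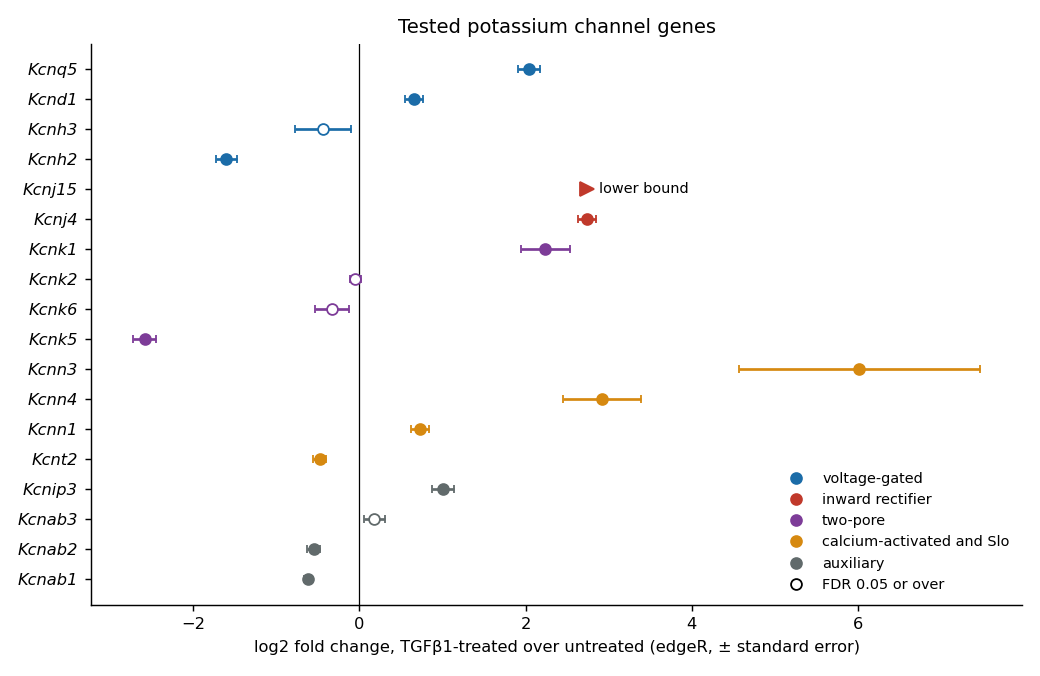
Log2 fold change of 18 of the 20 tested potassium channel genes in TGFβ1-treated over untreated libraries with its standard error from edgeR, coloured by channel group, with open circles for genes that did not pass. Kcnn3 and Kcnn4 lie farthest to the right on fitted values that depend on the prior count, Kcnj15 is drawn at its lower bound, and Kcnk5 and Kcnh2 lie farthest to the left.

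Among the inward rectifiers, which were 2 of 15 tested, Kcnj4 showed the clearest rise of all members. It encodes Kir2.3, a strong inward rectifier of the Kir2 family. Kcnj4 (ENSMUSG00000044216, chromosome 15, 79483714 to 79505241, minus strand) stood at 3.61, 3.27, 3.71 and 3.85 CPM in untreated libraries 1 to 4 and at 21.9, 23.2, 26.7 and 24.3 CPM in TGFβ1-treated libraries 1 to 4. All treated libraries lay far above all untreated ones, without overlap. The mean went from 3.61 ± 0.250 to 24.0 ± 2.06 CPM (SD, n = 4 per group), a 6.65-fold rise (2.74 on the log2 scale, standard error 0.110, FDR = 9.45e-153 from edgeR). Kcnj15 (ENSMUSG00000062609, chromosome 16, 95257558 to 95300260, plus strand), which encodes Kir4.2, had 0 counts in each untreated library. Its counts were 14, 12, 19 and 34 in the TGFβ1-treated libraries, a level at least 6.65-fold higher than 3 counts per untreated library (FDR = 2.80e-22 from edgeR). Of the 6905 stretches of 75 bases in its transcripts, 3.79% also occur on the opposite strand of Gm49643, which had 0 counts. Further genes on either strand, among them Dvl3 and Urod on the same strand, shared at most 0.145% each. The other 13 inward rectifier genes were not tested, and Kcnj10 was the highest of them with 0 to 4 and 4 to 8 counts. The summed level of the 15 genes was 3.79 ± 0.269 CPM in untreated and 25.3 ± 2.20 CPM in treated libraries (SD, n = 4), and nearly all of it was Kcnj4.

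The calcium-activated and Slo group had 4 of 8 genes tested, of which 3 were higher and 1 was lower. Of the 3 higher genes, Kcnn3 and Kcnn4 could enter the test only by being higher. The counts of this and the other groups are to be read against 37.6% higher and 38.0% lower among all genes tested. The small- and intermediate-conductance genes Kcnn1, Kcnn3 and Kcnn4 encode the channels SK1, SK3 and IK, which open when calcium binds to calmodulin on their tails. Kcnn3 (ENSMUSG00000000794, chromosome 3, 89520164 to 89675132, plus strand) had 0, 1, 0 and 0 counts in untreated libraries and 24, 25, 19 and 24 in TGFβ1-treated libraries. The gene thus passed from the limit of detection to about 1 CPM in each treated library. Summed over libraries and scaled to their size, the ratio was 97.3 with a 95% counting interval from 17.0 to 3884 (FDR = 1.22e-26 from edgeR). Kcnn4 (ENSMUSG00000054342, chromosome 7, 24370263 to 24386690, plus strand) had 3, 2, 3 and 3 counts in untreated and 16, 15, 26 and 25 in TGFβ1-treated libraries. Its untreated counts were thus at or below the limit of detection. Its ratio was 7.88 with a 95% counting interval from 4.18 to 16.4 (FDR = 2.46e-14 from edgeR). Kcnn1 was already present in untreated cells and rose from 4.52 ± 0.403 to 7.50 ± 0.393 CPM (SD, n = 4), or by 0.73 on the log2 scale (FDR = 3.65e-11 from edgeR). Kcnn2, the remaining SK gene, had 1 count in 1 untreated library and 0 in the other 7.

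The most abundant gene of this group moved the other way. Kcnt2 encodes Slo2.1, a potassium channel that is activated by sodium and chloride. It stood at 22.7, 23.8, 20.7 and 19.3 CPM in untreated libraries 1 to 4 and at 16.4, 15.3, 15.3 and 15.4 CPM in TGFβ1-treated libraries. The groups did not overlap, and the fall was small next to those of Kcnk5 and Kcnh2 (log2 fold change -0.48, standard error 0.0791, FDR = 3.53e-09 from edgeR). Because Kcnt2 holds most of the RNA of the group, its summed level was 27.0 ± 2.19 CPM in untreated and 25.5 ± 0.327 CPM in treated libraries (SD, n = 4), with overlapping libraries. Kcnu1, the pH-gated Slo3 gene of sperm, was not tested and had 14, 9, 11 and 7 counts in untreated and 1, 4, 4 and 5 in TGFβ1-treated libraries.

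Among the 30 voltage-gated genes 6 were tested, of which 3 were higher, 2 were lower and 1 did not pass. Of the 3 higher genes, 1 could enter the test only by being higher. Kcnq5 (ENSMUSG00000028033, chromosome 1, 21398403 to 21961942, minus strand) encodes Kv7.5, a slowly activating channel of the M-current that is also found in vascular smooth muscle. Its level was 3.57, 3.23, 2.58 and 2.13 CPM in untreated libraries 1 to 4 and 12.2, 13.0, 11.4 and 11.3 CPM in treated libraries. The groups lay far apart, with a 4.16-fold rise (log2 fold change 2.04, standard error 0.132, FDR = 3.86e-57 from edgeR).

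Kcnd1 encodes Kv4.1 of the transient A-type current. Per kilobase it was below Kcnh2 in untreated cells, at 1.41 ± 0.163 against 2.37 ± 0.171 CPM, and above it after TGFβ1, at 2.22 ± 0.192 against 0.779 ± 0.166 CPM (SD, n = 4). It stood at 7.71, 6.23, 7.55 and 8.27 CPM in untreated libraries 1 to 4 and at 12.7, 12.6, 10.7 and 11.1 CPM in TGFβ1-treated libraries. Every treated library was above every untreated one (log2 fold change 0.66, standard error 0.108, FDR = 1.83e-09 from edgeR). Kcnh2 (ENSMUSG00000038319, chromosome 5, 24319589 to 24351604, minus strand) encodes ERG1, the channel that ends the cardiac action potential. Its values were 12.6, 11.5, 11.1 and 10.7 CPM in untreated libraries and 3.62, 2.82, 4.77 and 3.88 CPM in treated libraries. The lowest untreated library was more than 2 times the highest treated one. The mean fell from 11.5 ± 0.830 to 3.78 ± 0.803 CPM (SD, n = 4), with a log2 difference of -1.60 (standard error 0.129, FDR = 6.89e-36 from edgeR). Kcnh3 did not pass, with 6 to 17 counts in untreated and 5 to 16 in treated libraries (FDR = 0.216 from edgeR). The remaining 24 voltage-gated genes were not tested, and none but Kcna3 reached 10 counts in a library. Kcna3, a channel of lymphocytes, had 4, 15, 3 and 4 counts in untreated and 1, 5, 1 and 3 in treated libraries. Of the modulatory genes, Kcnf1 had 10, 5, 3 and 4 counts in untreated and 2, 0, 2 and 6 in treated libraries.

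Of the K2P genes, 4 of 14 were tested, and they gave 1 fall, 1 rise and 2 genes that did not pass. The rise was that of Kcnk1, which could enter the test only by being higher. Kcnk5 (ENSMUSG00000023243, chromosome 14, 20140057 to 20181809, minus strand) encodes TASK-2, a leak channel that is closed by acid and takes part in volume regulation. It had the largest fall of all tested members. Its level was 10.9, 11.2, 11.6 and 10.4 CPM in untreated libraries 1 to 4 and 1.46, 1.51, 2.31 and 2.02 CPM in TGFβ1-treated libraries. No treated library came near the untreated ones, and the mean was 6.05-fold lower after TGFβ1 (log2 fold change -2.58, standard error 0.141, FDR = 1.51e-90 from edgeR). Kcnk1 (ENSMUSG00000033998, chromosome 8, 125995170 to 126030685, plus strand), which encodes the weak leak channel TWIK-1, had 8, 4, 8 and 12 counts in untreated and 31, 29, 35 and 50 in treated libraries. The groups did not overlap, and the mean rose 4.52-fold from 0.373 ± 0.188 to 1.69 ± 0.217 CPM (SD, n = 4, log2 fold change 2.24, FDR = 4.18e-17 from edgeR).

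Kcnk2, the pore-forming member with the highest level per kilobase in untreated cells, encodes TREK-1, a leak channel that responds to stretch and lipids. Its values were 22.5, 20.2, 20.1 and 20.7 CPM in untreated libraries 1 to 4 and 19.7, 20.1, 20.5 and 20.5 CPM in treated libraries, which overlapped. The log2 fold change was -0.046 with a standard error of 0.0634 (FDR = 0.514 from edgeR). Kcnk6, which encodes TWIK-2, had 2.44 ± 0.373 and 1.95 ± 0.669 CPM (SD, n = 4) and did not pass (FDR = 0.137 from edgeR). Treated library 1 decided this, since without it the log2 fold change was -0.56 instead of -0.33 and the FDR 0.00401 from edgeR. The summed level of the 14 genes was 34.9 ± 0.791 CPM in untreated and 26.1 ± 0.837 CPM in treated libraries (SD, n = 4). This fall was that of Kcnk5, whose mean went from 11.0 to 1.83 CPM.

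**Figure D3:**
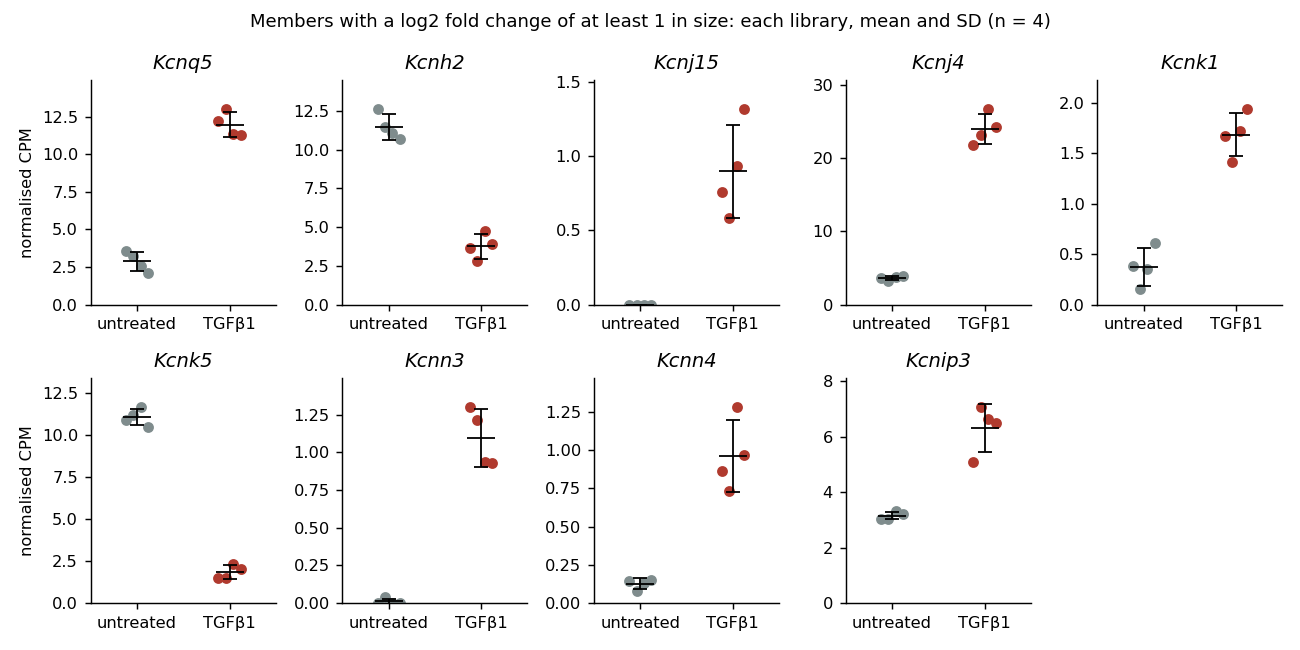
Normalised CPM in each library of 9 of the 10 members that passed with a log2 fold change of at least 1 in size, where points are libraries and bars the mean and SD of n = 4 untreated (grey) or TGFβ1-treated (red) libraries. In each panel the 2 groups are apart, with Kcnh2 and Kcnk5 lower and the other 7 genes higher after TGFβ1.

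Auxiliary subunits took most of the reads counted on potassium channel genes, before any correction for length. Kcnab1 alone, which encodes the cytoplasmic Kvβ1 subunit that speeds inactivation of Kv1 channels, took 61.4 to 63.8% of all member counts in untreated libraries and 48.5 to 50.7% in treated libraries. Kcnab1 (ENSMUSG00000027827, chromosome 3, 65109384 to 65378223, plus strand) stood at 217, 203, 216 and 223 CPM in untreated libraries 1 to 4 and at 141, 135, 136 and 149 CPM in TGFβ1-treated libraries. The groups did not overlap, and the level fell by 0.61 on the log2 scale (standard error 0.0463, FDR = 3.23e-39 from edgeR). Kcnab2, for Kvβ2, followed at 26.4, 26.3, 24.8 and 27.5 CPM in untreated and 19.0, 15.1, 18.5 and 19.1 CPM in treated libraries. All treated libraries were below all untreated ones (log2 fold change -0.55, standard error 0.0761, FDR = 1.45e-12 from edgeR). Kcnab3 did not pass at 6.51 ± 1.12 and 7.35 ± 0.628 CPM (SD, n = 4, FDR = 0.183 from edgeR). Without untreated library 4 it was called higher, with a log2 fold change of 0.29 instead of 0.18 (FDR = 0.0165 from edgeR). The Kv1 genes Kcna1 to Kcna7 and Kcna10, whose channels the Kvβ subunits join, had at most 6 counts in any library apart from Kcna3.

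Kcnip3 encodes a calcium-binding protein that joins Kv4 channels and is also known as calsenilin or DREAM. It was at 3.04, 3.04, 3.32 and 3.19 CPM in untreated libraries 1 to 4 and at 5.08, 7.06, 6.64 and 6.48 CPM in TGFβ1-treated libraries. The treated values were about double the untreated ones and did not overlap with them (log2 fold change 1.01, standard error 0.132, FDR = 3.59e-14 from edgeR). Among the genes of the KCNE family and of the β subunits of the large-conductance channel, none was tested, and the highest count in a library was 6. Over the 15 auxiliary genes the sum was 251 ± 9.33 CPM in untreated and 172 ± 6.99 CPM in treated libraries (SD, n = 4). Most of this difference was in Kcnab1, whose mean went from 215 to 140 CPM. Over the 77 pore-forming genes the sum was 90.9 ± 3.65 in untreated and 111 ± 1.49 CPM in treated libraries. Kcnj4 alone went from 3.61 to 24.0 CPM, so this sum does not describe the pore-forming genes as a class.

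**Figure D4:**
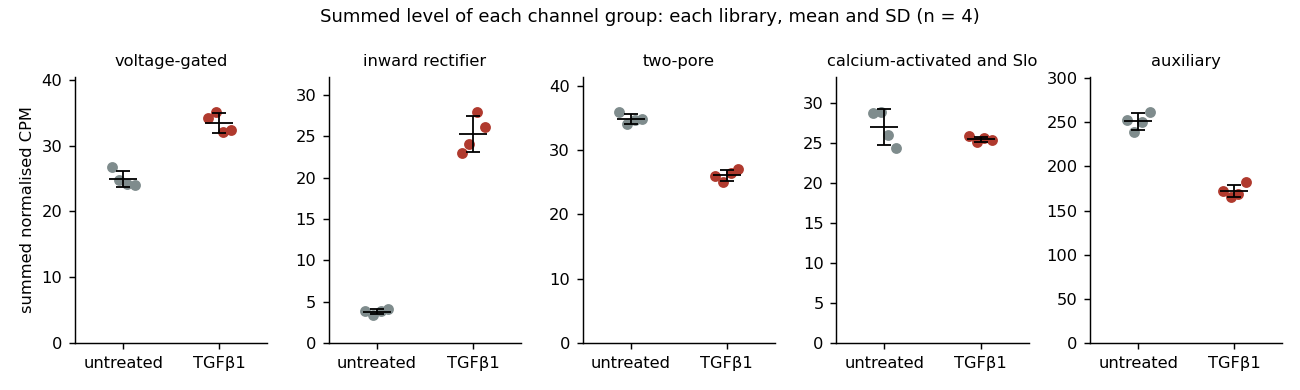
Summed normalised CPM of all genes of each channel group in each library, with the mean and SD of n = 4 untreated (grey) or TGFβ1-treated (red) libraries. The inward rectifier and voltage-gated sums are higher and the K2P and auxiliary sums lower after TGFβ1, while the calcium-activated and Slo sums overlap. Most of the change in the inward rectifier, K2P and auxiliary sums was in Kcnj4, Kcnk5 and Kcnab1, in the same order.

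Levels of different genes were compared as CPM per kilobase of annotated exon. In untreated cells Kcnab1 led with 25.0 ± 0.968 CPM per kilobase (SD, n = 4), followed by Kcnab2 at 4.71 ± 0.204, Kcnk2 at 4.23 ± 0.222, Kcnk5 at 3.24 ± 0.145 and Kcnt2 at 3.14 ± 0.293. Kcnk5 and Kcnt2 differed by less than the SD of Kcnt2. After TGFβ1 the order was Kcnab1 at 16.3 ± 0.709, Kcnj4 at 11.2 ± 0.958, Kcnk2 at 4.09 ± 0.0785 and Kcnab2 at 3.21 ± 0.334 CPM per kilobase. Thus Kcnj4 moved from place 8 to place 2 among the 92 genes and had the highest level per kilobase of the pore-forming members. In the same ranking Kcnk5 went from place 4 to 14 and Kcnh2 from 6 to 11. Exon length was taken over all annotated isoforms, so a gene that uses a short isoform is understated.

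**Figure D5:**
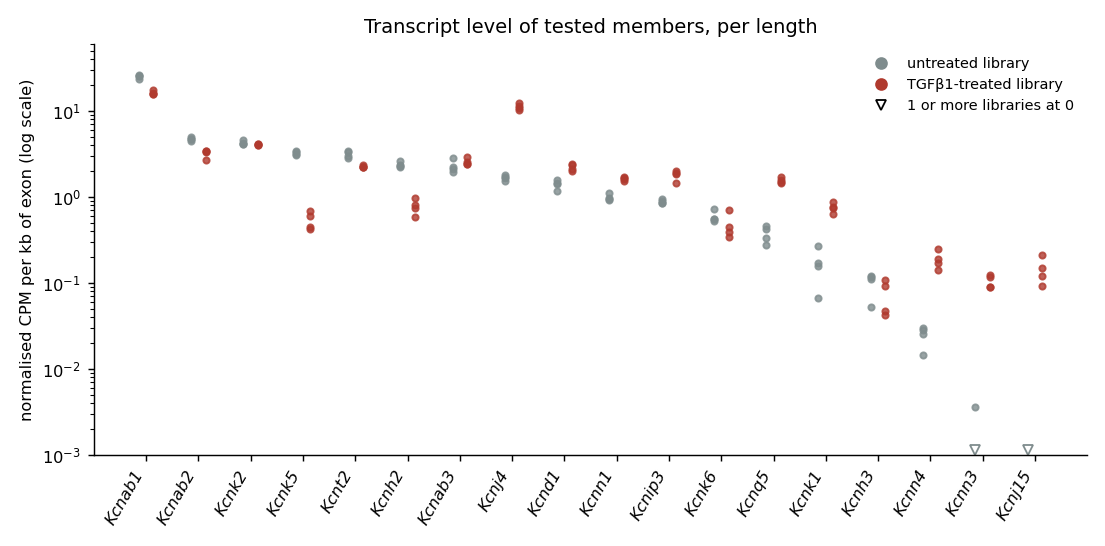
Normalised CPM per kilobase of exon on a log axis for 18 of the 20 tested members, ordered by their level in untreated cells, with 1 point per untreated (grey) or TGFβ1-treated (red) library and open triangles where a library had 0 counts. Kcnab1 stands highest in both groups, Kcnj4 rises to the second place, and Kcnn3, Kcnn4 and Kcnj15 start at or below the limit of detection.

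Genes that work with these channels were listed as the subunits of the sodium-potassium pump, cation-chloride cotransporters, HCN channels, further channel subunits, calmodulins and intracellular potassium-permeable channels. Of 42 such genes 22 were tested, with 12 significantly higher, 8 significantly lower and 2 that did not pass, and a median log2 fold change of 0.27. These shares are to be read against the 37.6% higher and 38.0% lower among all genes. Changes of at least 1 on the log2 scale were seen in 4 of the 22 genes, all higher, against 17.5% of all genes in either direction and 10.9% higher. Fxyd5, a regulator of the pump, rose from 6.75 ± 0.295 to 20.7 ± 0.0957 CPM (SD, n = 4, log2 fold change 1.61, FDR = 2.53e-94 from edgeR). Tmem38a, an intracellular channel of the sarcoplasmic reticulum, rose from 18.2 ± 1.23 to 54.6 ± 3.40 CPM (SD, n = 4, log2 fold change 1.59, FDR = 2.94e-120 from edgeR). Lrrc55, an auxiliary subunit of the large-conductance channel, had 0 to 2 counts in untreated and 20 to 26 in treated libraries and so could enter the test only by being higher there, while the pore gene Kcnma1 stayed at 6 counts or fewer.

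Promoter sequence was examined for motifs that TGFβ1 signalling is known to use, with RefSeq sequences on GRCm38.p6 for 14 of the 20 tested genes. Windows of 200 bases, from 250 to 51 bases before each annotated start, were searched on both strands. The CAGA box core that SMAD proteins bind (CAGAC) was found in 14 of 25 windows of these genes, and in 35.8% of 32851 windows of all genes. The AP-1 site TGANTCA was found in 2 of the 25 windows and in 5.57% of all, and the SMAD palindrome GTCTAGAC in 0 of 25 and in 0.155% of all. The windows of the gene with the largest fall and of 3 genes with large rises are given here beside their direction, with CAGAC or its complement GTCTG in capitals.
Kcnk5: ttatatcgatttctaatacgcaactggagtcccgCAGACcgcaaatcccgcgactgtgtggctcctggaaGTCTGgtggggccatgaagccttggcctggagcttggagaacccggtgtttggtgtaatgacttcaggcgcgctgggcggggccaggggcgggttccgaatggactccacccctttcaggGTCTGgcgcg
Kcnj4: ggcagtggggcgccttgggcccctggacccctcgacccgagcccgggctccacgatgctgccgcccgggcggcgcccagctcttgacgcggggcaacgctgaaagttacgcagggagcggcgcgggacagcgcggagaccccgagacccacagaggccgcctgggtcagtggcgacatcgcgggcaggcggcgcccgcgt
Kcnj15: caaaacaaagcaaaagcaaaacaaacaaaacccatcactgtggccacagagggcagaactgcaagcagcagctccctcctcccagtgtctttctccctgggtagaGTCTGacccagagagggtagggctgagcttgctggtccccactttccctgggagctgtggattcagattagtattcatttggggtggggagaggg
Kcnn4: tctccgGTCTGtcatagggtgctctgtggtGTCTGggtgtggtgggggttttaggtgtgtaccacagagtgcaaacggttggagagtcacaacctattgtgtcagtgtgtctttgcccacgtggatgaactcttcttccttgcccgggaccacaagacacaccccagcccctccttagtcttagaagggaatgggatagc
The windows lie at chr14:20181833-20182032 (minus strand), chr15:79505292-79505491 (minus strand), chr16:95257308-95257507 (plus strand) and chr7:24370013-24370212 (plus strand), and none overlaps an annotated exon. The motif occurred 3 times for Kcnk5, which fell, and 0, 1 and 2 times for Kcnj4, Kcnj15 and Kcnn4, which rose. It occurred 0 times in the windows of Kcnh2, which fell, and of Kcnn3, which rose. The Kcnh2 window, at chr5:24329642-24329841, lies inside the gene, and the sequence before its outermost annotated start was not examined. Whether the motif count goes with direction was not tested. The windows also differed in base composition, with a GC content of 76.0% for Kcnj4 and 53.5% for Kcnj15 against a median of 51.5% over all windows.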

How the data were processed

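Libraries were prepared with a stranded poly(A) kit and sequenced as single-end reads of 75 bases. Per the labels, the authors aligned reads to GRCm38 (mm10). The submitters' processing notes name bcl2fastq 2.20.0.422, STAR 2.7.3a and featureCounts 1.5.1. The deposited values are raw counts of reads per gene, and no normalization by the authors was found in them. The annotation release and the use of strand in counting are not given in the sources used here.

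Groups were taken from the library titles. The whole table was fitted with edgeR 4.0.16 in R 4.3.3, with filterByExpr at its defaults, TMM scaling, estimateDisp, and glmFit with glmLRT, the test that the study's Methods name. FDRs are Benjamini-Hochberg values over all 13818 genes tested, with a threshold of 0.05. Standard errors come from the fitted model's information. Every potassium channel gene was open to naming, with values per library for changes of at least 1 on the log2 scale and for the most abundant genes, and members not tested were named from 10 counts, together with genes named after their values were seen. Some genes under this rule are not reported here. The members, groups and lists were chosen with earlier results of these data known. The fit was tested on simulated data with 13818 genes, in which the likelihood ratio test called 97 of 100 genes changed by 1 and 97 of 100 changed by 2 on the log2 scale, 29 unchanged genes and no changed gene with the wrong sign. Gene positions, exon lengths and shared stretches of 75 bases came from GENCODE M21, which matched 92 of 92 members, and promoters from RefSeq. Alternatives were the quasi-likelihood test, DESeq2 1.42.0, other scalings, filters, thresholds and prior counts, a replicate block, and each library left out in turn. Within groups, chi-square per degree of freedom between libraries was 2.37 to 7.84, so libraries differed by more than counting error, which does not show that they came from separate cultures.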

Additional observations from a re-analysis of the deposited data

Results flagged for a closer look

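Among 40 sets of 4 libraries, 1 for each tested gene and group, 3 had a library that stood apart from the other 3 by Dixon's criterion on log2 CPM, and chance gives about 1 in 20. Kcnab2 was low in TGFβ1-treated library 2, at 15.1 CPM against 18.5 CPM in the nearest library, a gap that made up 0.859 of the group's range. Kcnh3 was low in untreated library 4, at 0.304 against 0.639 CPM, with a gap of 0.885 of the range on 6 counts. Kcnn3 was high in untreated library 2, where its 1 count against 0 in the other libraries makes the gap the whole range, a value of 1.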

How the results depend on the processing

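Across 336 alternative values for the 20 tested genes, none changed direction, 328 kept their side of the threshold, 6 lost significance, and 2 gained it. The counts of 10 higher and 6 lower genes were 10 and 5 with DESeq2 and at an FDR of 0.01. They were 7 and 6 when 1 CPM was required in 4 libraries, which removed Kcnj15, Kcnn3, Kcnn4 and Kcnh3, and 10 and 6 with total counts alone. Without a filter on low counts 16 genes were higher and 8 lower, the 8 additional genes having at most 14 counts in any library, and the median log2 fold change moved from 0.42 to 0.95. It moved to 0.081 with the filter of 1 CPM. Leaving out 1 library gave 10 to 11 higher and 5 to 6 lower genes. The replicate numbers did not pair the libraries (correlations of same-numbered deviations between -0.193 and -0.0336), and no number was its own best partner, and the replicate block gave 10 higher and 6 lower genes. At this depth a gene with 3 counts per library or fewer in both groups could not be compared.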

Other observations

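Without the filter on low counts, 8 further members passed an FDR of 0.05 in edgeR's likelihood ratio test, and they are named here because of their values. Kcnk12, a K2P gene, had 0 to 1 counts in untreated and 2 to 8 in TGFβ1-treated libraries. Kcns3, a modulatory voltage-gated gene, had 0 to 1 and 2 to 6 counts. Kcnip1 had 3 to 8 and 0 to 2 counts, and Kcnu1 had 7 to 14 and 1 to 5, both without overlap between the groups. For Kcne1, Kcnj10, Kcnmb4 and Kcnq1 the groups overlapped. In that fit 43.8% of 27709 genes passed.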
